A study of Mus musculus with 6 samples.

Results

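Smooth muscle and mural cell genes were followed in inguinal fat (iWAT), a white adipose depot under the skin that acquires beige adipocytes in the cold. The genes were Acta2, Myh11, Tagln, Cnn1, Lmod1, Smtn, Actg2, Flnc, Synpo2 and Cacna2d1, which are 10 of the 16538 genes listed in the deposited table. The first 7 are markers of contractile smooth muscle. The other 3 (Flnc, Synpo2 and Cacna2d1) are also transcribed in skeletal muscle and were selected on their normalized counts, which were already known to be higher in the AKO samples. The question asked of them was whether, from sample to sample, they moved with the smooth muscle genes or with Acta1, the actin of skeletal muscle fibers. Since the choice rested on the difference between genotypes, that difference is given as a description. The calls of the fit across all genes are printed beside it, but nothing is drawn from them. The changes from sample to sample within a genotype did not enter the choice and were tested.

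RNA-Seq was performed on bulk iWAT from mice acclimated to cold at 8°C, for 10 days by the sample labels. The control group held 3 samples labelled wt (fl/fl littermates by the study's methods), and the AKO group held 3 samples from mice labelled as carrying a deletion of Nrg4 in adipocytes. Each sample combined the RNA of 2 mice of the same genotype. Nrg4, which encodes neuregulin 4, a secreted ligand of ERBB4, was deleted with Adiponectin-Cre, which acts in adipocytes and leaves the gene intact in smooth muscle, pericytes, endothelium and muscle fibers. The labels give neither the age nor the sex of the mice. In bulk tissue, fewer cells of a type and less RNA per cell cannot be told apart.

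The 6 samples had 17570335 to 18373707 reads on the listed genes. The values are normalized counts, that is, reads divided by a size factor for each sample, so that 1 read was worth between 0.960 and 1.08. Nrg4 stood at 3128, 3102 and 3092 normalized counts in controls against 2577, 2627 and 2691 in AKO, 15.3% lower on average, with no overlap between groups. A decrease of this size is far from the loss that the label names. By qPCR, the paper reports almost no Nrg4 mRNA in iWAT and brown fat of AKO mice. The RNA-Seq count covers the whole gene and not the deleted exons alone, so it does not check the deletion. Skeletal muscle RNA differed far more between samples than any of the 10 genes. Acta1 was 62.2, 6536 and 3498 in controls against 4377, 15282 and 27039 in AKO, a range of 435-fold. The sum of 30 skeletal muscle genes ran from 870.0 to 29360 in the control samples and from 22398 to 124350 in the AKO samples. Genes named below by list come from lists written for this tissue, and 136 of their 138 genes were found in the table.

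Smooth muscle cells wrap the arteries, arterioles and venules of fat and set their diameter, and pericytes lie along the capillaries. Together they are called mural cells. Contraction rests on a smooth muscle isoform of actin (Acta2 in vessels, Actg2 mainly in visceral muscle) sliding on smooth muscle myosin (Myh11), and serum response factor with its cofactor myocardin drives these genes through CArG boxes in their promoters. The same contractile genes are also active in the myoepithelial cells of the mammary gland, which lies within this depot, so the markers do not name vessels alone.

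Because Acta1 varied so widely, the first point to settle was whether its reads could have been counted as those of the smooth muscle actins. The coding sequences of Acta1 and Acta2 were 85.4% identical, those of Acta2 and Actg2 84.2% and those of Acta1 and Actg2 85.0%. A stretch of 90 coding bases is shown to make the spacing of the differences visible, with bases that differ from Acta2 in capitals. It covers coding bases 601 to 690 of Acta2 and Acta1 and 598 to 687 of Actg2. On the GRCm38 genome, introns included, it spans chr19:34245030-34246093, chr8:123892662-123892848 and chr6:83519886-83520671, each on the minus strand.
Acta2: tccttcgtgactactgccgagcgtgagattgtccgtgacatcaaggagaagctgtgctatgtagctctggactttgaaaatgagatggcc
Acta1: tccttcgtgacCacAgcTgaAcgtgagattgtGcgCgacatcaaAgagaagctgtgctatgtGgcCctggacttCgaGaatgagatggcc
Actg2: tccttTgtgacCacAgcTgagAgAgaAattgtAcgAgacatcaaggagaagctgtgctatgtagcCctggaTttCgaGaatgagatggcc
Acta1 differed from Acta2 at 11 of these 90 bases and Actg2 at 13. Of the 1986 windows of 50 bases in the Acta2 transcript, 0 occurred unchanged in the Acta1 or the Actg2 transcript. Acta2 and Actg2 reads of at least that length could thus be told from Acta1 reads by sequence, although how the counting treated reads with mismatches was not tested.

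Promoters are shown next for Acta2, Acta1 and the 3 genes in question, because smooth and skeletal muscle actin share control through CArG boxes. RefSeq promoter windows of GRCm38.p6 were found for 8 of the 11 genes looked up (the 10 genes and Acta1). The last 170 bases before the start site are printed, with matches to the CArG box in capitals, allowing at most 1 G or C among the A and T bases of its core. The stretches are chr19:34255374-34255543 (minus strand) for Acta2, chr8:123894776-123894945 (minus) for Acta1 and chr6:29432983-29433152 (plus) for the first of the pair of Flnc windows. They are chr3:123236150-123236319 (minus) for Synpo2 and chr5:15934521-15934690 (plus) for Cacna2d1.
Acta2: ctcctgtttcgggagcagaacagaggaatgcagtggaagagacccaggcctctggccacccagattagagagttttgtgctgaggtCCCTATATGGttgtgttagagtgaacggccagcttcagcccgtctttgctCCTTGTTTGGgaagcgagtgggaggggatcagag
Acta1: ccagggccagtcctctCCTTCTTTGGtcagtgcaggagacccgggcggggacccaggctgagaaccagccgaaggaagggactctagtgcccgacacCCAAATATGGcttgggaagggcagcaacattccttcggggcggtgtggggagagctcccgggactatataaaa
Flnc: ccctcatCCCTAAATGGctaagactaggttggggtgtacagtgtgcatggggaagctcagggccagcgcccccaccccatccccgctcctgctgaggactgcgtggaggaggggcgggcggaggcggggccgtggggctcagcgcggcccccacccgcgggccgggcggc
Synpo2: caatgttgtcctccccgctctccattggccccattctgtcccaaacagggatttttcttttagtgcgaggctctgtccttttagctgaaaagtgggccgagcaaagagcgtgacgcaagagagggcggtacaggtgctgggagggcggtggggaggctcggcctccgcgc
Cacna2d1: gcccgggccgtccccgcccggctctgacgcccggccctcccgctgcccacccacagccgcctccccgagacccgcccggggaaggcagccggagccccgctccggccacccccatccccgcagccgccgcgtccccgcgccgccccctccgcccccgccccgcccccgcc
Acta2 held 2 such matches, beginning 84 and 34 bases before the start site, and Flnc held 1, beginning 163 bases before it. Acta1 held an exact CArG box 73 bases before its start and imperfect matches 154 and 205 bases before it, the last outside the stretch printed. Synpo2 and Cacna2d1 held 0 in the 250 bases searched, as did the other Flnc window and the windows of Cnn1, Lmod1 and Smtn. The motif reads the same on both strands. Among 32851 mouse promoter windows of 250 bases, 1.47% held an exact CArG box and 8.59% a match with at most 1 G or C in the core. These are matches of letters only, and no match says only that the letters are not in this window.

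Acta2, the vascular smooth muscle actin, was the most abundant of the 10 genes per length of transcript, at 832 ± 123 normalized counts per kb of exon in the control samples (SD, n = 3). The gene lies at chr19:34241090-34255590 on the minus strand of GRCm38. Its normalized counts were 1521, 1935 and 2027 in controls against 1450, 2134 and 1799 in AKO. The groups overlapped over almost their whole range, with replicate 1 lowest in both. Myh11, the smooth muscle myosin heavy chain, was 1299, 1453 and 1335 in controls against 1070, 1315 and 1293 in AKO. Its groups also overlapped, with AKO replicate 1 below the others. The log2 fold change (AKO against control, on log2(normalized count + 1)) was -0.03 ± 0.16 (SE) for Acta2 and -0.16 ± 0.09 for Myh11.

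Tagln encodes transgelin, an actin-binding protein of smooth muscle. It was 952, 1144 and 1060 normalized counts in controls against 852, 1070 and 1146 in AKO, again with replicate 1 lowest in each group. Its exons share 67.9% of their bases with the overlapping genes Pcsk7 and Gm48529, so its count is uncertain if strand was not used. Smtn, encoding smoothelin of contractile smooth muscle, was the steadiest, at 1305, 1493 and 1400 in controls against 1343, 1321 and 1401 in AKO. It varied by 1.14-fold over the 6 samples, and 16.3% of its exon bases are shared with Gm11946 and Gm11947. The log2 fold changes were -0.05 ± 0.12 for Tagln and -0.04 ± 0.07 for Smtn.

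Lmod1, encoding leiomodin 1, which nucleates actin filaments, was 166, 197 and 184 normalized counts in controls against 150, 164 and 196 in AKO. Actg2 was 32.1, 30.1 and 33.5 in controls against 19.2, 41.0 and 38.6 in AKO. At such low counts the control samples lay closer together than read counting alone would give (SD 1.73 against a counting SD of 5.74), so their SD understates the error. Both genes overlapped between groups, and their log2 fold changes were -0.11 ± 0.13 and -0.03 ± 0.31.

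Cnn1, encoding calponin 1, which binds actin and slows the myosin motor, varied most among the 7 smooth muscle genes. It was 70.2, 77.4 and 141 normalized counts in controls against 44.2, 161 and 99.3 in AKO, a range of 3.65-fold with overlapping groups (log2 fold change -0.04 ± 0.46). Cnn1 is also a gene of myoepithelial cells, and markers of mammary epithelium varied in the same samples. The summed level of 8 mammary epithelial and myoepithelial genes was 886, 493 and 1432 in controls against 696, 2401 and 1170 in AKO. Of the 8, Krt5, Krt14, Krt8 and Epcam stood at 0 in control replicate 2. Oxtr, which had the highest mean of the 8 (570 normalized counts), did not, so the sum leans on Oxtr and is a weak measure of mammary tissue. The sums and Cnn1 were both highest in AKO replicate 2 and next highest in control replicate 3, and the part of mammary tissue in the Cnn1 level was not tested.

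The 7 smooth muscle genes thus had log2 fold changes between -0.16 and -0.03, with a median of -0.04 beside 0.01 for all 13855 genes tested, and the groups overlapped for 7 of 7. Without AKO replicate 1, the values turned to 0.11 for Acta2, 0.08 for Tagln, 0.46 for Cnn1 and 0.31 for Actg2, and the other 3 kept their sign. Replicate 1 was the lowest sample of its group for 6 of 7 genes in the control group and for 6 of 7 in the AKO group. As a measure of smooth muscle RNA in each sample, the mean log2 value of the 7 genes (the smooth muscle score) was 8.54, 8.72 and 8.81 in controls against 8.25, 8.85 and 8.76 in AKO. AKO replicate 1 had the lowest score of the 6 samples.

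**Figure D1:**
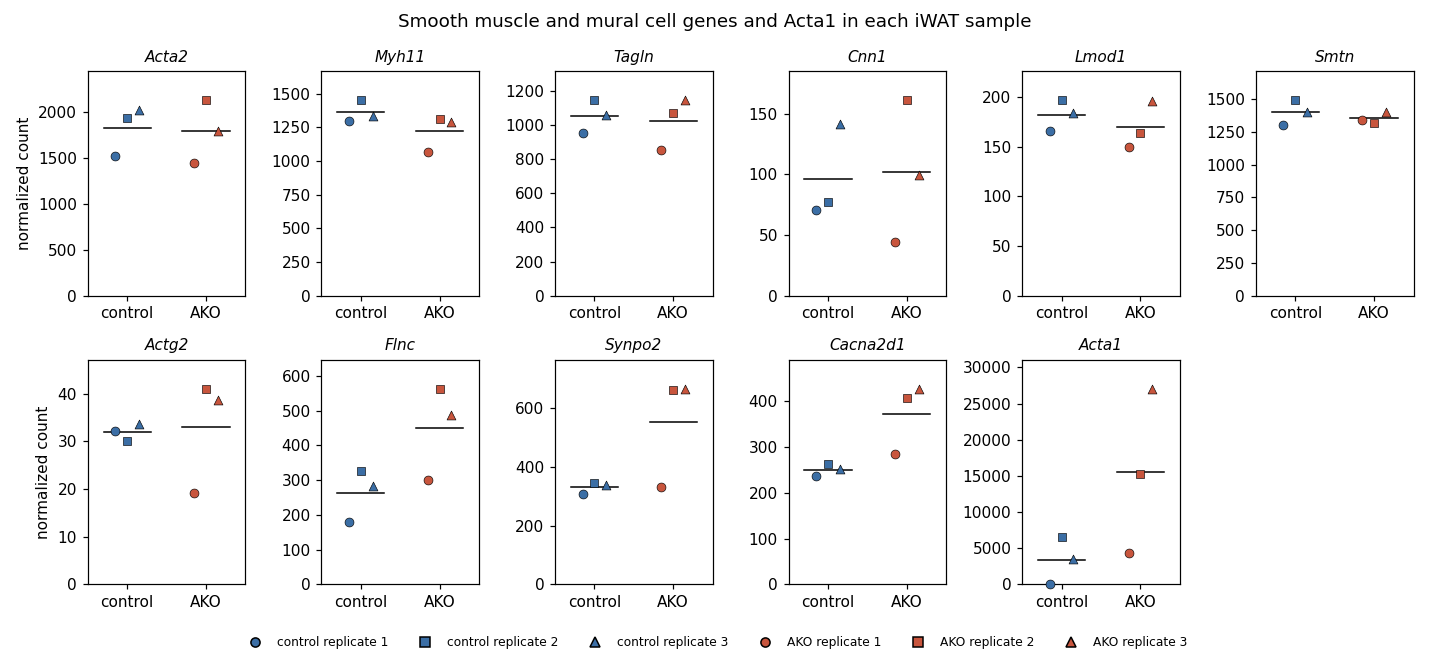
Normalized counts of the 10 genes and Acta1 in each sample (y axes from 0, one panel per gene; blue control, red AKO; symbols give the replicate number, horizontal lines the group means, n = 3). The 7 smooth muscle genes overlap between groups, AKO replicates 2 and 3 lie above the other 4 samples for Flnc, Synpo2 and Cacna2d1, and Acta1 runs from 62.2 to 27039.

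Flnc, Synpo2 and Cacna2d1 had higher mean levels in the AKO samples, the pattern they were selected on. Flnc encodes filamin C, which crosslinks actin at the Z-disc of striated muscle and is also made in some smooth muscle. The gene lies at chr6:29433256-29461883 on the plus strand (GENCODE, GRCm38). Its level was 179, 325 and 283 normalized counts in controls against 299.6, 562 and 488 in AKO. AKO replicates 2 and 3 were the highest samples and control replicate 1 was the lowest, while AKO replicate 1 lay between control replicates 2 and 3. The mean was 71.7% higher in the AKO samples, with a log2 fold change of 0.77 ± 0.28.

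Synpo2 encodes myopodin (synaptopodin 2), an actin-bundling partner of filamin found in smooth muscle and at the Z-disc, from a gene at chr3:123076519-123236149 on the minus strand. It was 307, 344 and 339 normalized counts in controls against 332, 659.98 and 665 in AKO. AKO replicate 1 fell within the narrow range of the control samples, and AKO replicates 2 and 3 lay far above it. The mean was 67.5% higher in the AKO samples, with a log2 fold change of 0.67 ± 0.25.

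Cacna2d1 encodes the α2δ-1 subunit of voltage-gated calcium channels, which is part of the channel in both skeletal and smooth muscle, from a gene at chr5:15934691-16374511 on the plus strand. It was 236, 263 and 251 normalized counts in controls against 284, 407 and 427 in AKO. It was the single gene of the 10 whose AKO samples all lay above all control samples, a pattern shown by 6.14% of the genes tested. The mean was 49.1% higher in the AKO samples, with a log2 fold change of 0.55 ± 0.15, and the control SD of 13.8 was again slightly below the counting SD of 16.1. With limma and Benjamini-Hochberg adjustment, 0 of the 10 genes were called between genotypes, beside 0.0144% of the 13855 genes tested (2 genes), and 611 higher and 650 lower genes had an unadjusted p under 0.05. Nothing is read from these counts, since the contrast chose the genes.

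Per kb of exon, the 3 genes were close to each other in the control samples, at 27.9 ± 8.00 for Flnc, 25.2 ± 1.53 for Synpo2 and 20.1 ± 1.12 for Cacna2d1 (SD, n = 3). These levels lay next to those of Cnn1 (35.2 ± 14.3) and Actg2 (20.5 ± 1.11), and below Tagln (529 ± 48.4), Smtn (319 ± 21.5), Myh11 (179 ± 10.6) and Lmod1 (46.1 ± 3.97). In order of level, the control samples of neighboring genes overlapped from Lmod1 through Cnn1 and Flnc to Synpo2 and from Actg2 to Cacna2d1, whereas each Synpo2 value lay above all values of Actg2 and Cacna2d1. In the AKO samples Flnc reached 47.9 ± 14.4, Synpo2 42.2 ± 14.6 and Cacna2d1 30.03 ± 6.23 normalized counts per kb.

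Control replicate 1 shows what the 3 genes amount to when skeletal muscle RNA is nearly absent. Acta1 stood at 62.2 normalized counts there, and Myoz1, Xirp2 and Myot, which are genes of the muscle Z-disc, at 0. Even so, Flnc was 179, Synpo2 307 and Cacna2d1 236. From control replicate 1 to control replicate 2, Acta1 was 105-fold higher, while Flnc was 1.82-fold, Synpo2 1.12-fold and Cacna2d1 1.12-fold higher and Acta2 was 1.27-fold higher. Most of the Synpo2 and Cacna2d1 level of the control samples was therefore present in a sample with almost no Acta1.

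Further pairs of samples were set side by side after their values had been seen, because they match in either smooth muscle score or Acta1. AKO replicate 2 and control replicate 3 differed by 0.04 in the smooth muscle score, and Acta2 was 1.05-fold higher in the former. Acta1 was 4.37-fold higher there, with Flnc 1.99-fold, Synpo2 1.95-fold and Cacna2d1 1.62-fold higher. AKO replicate 3 and control replicate 2 differed by 0.05 in the score and by 4.14-fold in Acta1, and the 3 genes were 1.502-fold, 1.93-fold and 1.62-fold higher in the AKO sample. The 3 genes were selected on higher levels in AKO samples, so the direction of these 2 pairs was fixed by the selection and says nothing about Acta1.

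The reverse match used AKO replicate 1, whose Acta1 was near that of control replicates 2 and 3 (and far above that of control replicate 1) while its smooth muscle score was lower. Against control replicate 3 its score was lower by 0.56 (difference -0.56), with 0.715 times the Acta2 and 1.25 times the Acta1. Its Flnc was 1.06 times, its Synpo2 0.982 times and its Cacna2d1 1.13 times the level in control replicate 3. Against control replicate 2 (score difference -0.46, Acta1 0.670 times), the ratios were 0.923, 0.966 and 1.08. At similar Acta1 the 3 genes were at 0.923 to 1.13 times the control level, while the smooth muscle score was lower. These pairs, too, set an AKO sample against controls for genes selected as higher in AKO samples. The selection could raise the ratios, so nothing is drawn from them. In the pairs that set AKO replicate 2 or 3 against a control sample, genotype and skeletal muscle RNA differed together and cannot be told apart. In the pairs with AKO replicate 1, the same holds for genotype and smooth muscle score.

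**Figure D2:**
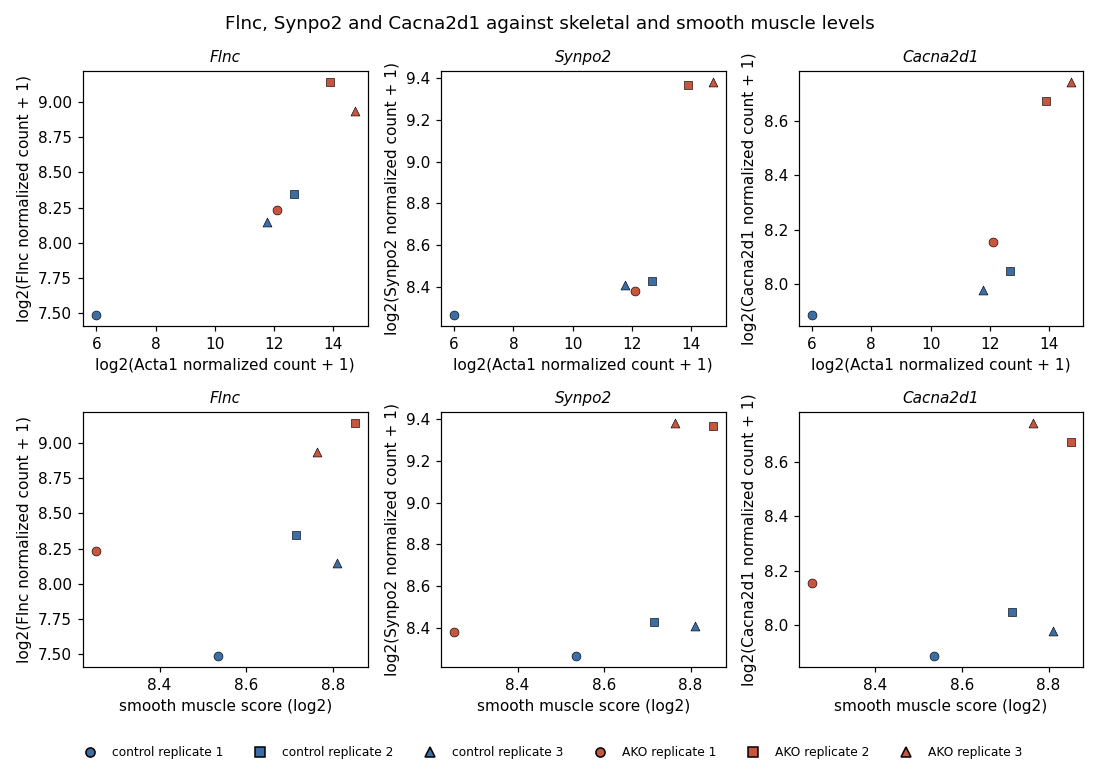
Log2 level of Flnc, Synpo2 and Cacna2d1 in each sample against log2 Acta1 (upper panels) and against the smooth muscle score, the mean log2 level of 7 genes (lower panels); blue control, red AKO, symbols give the replicate number. In the upper panels AKO replicate 1 sits among control replicates 2 and 3, and in the lower panels it sits at the far left, with a score of 8.25, at a level close to theirs.

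To test the relation without the difference between genotypes, each gene was fitted on log2 Acta1 with genotype in the model (limma, 13854 genes). A slope of 1 would mean that a gene doubled whenever Acta1 doubled. Of 29 skeletal muscle genes tested, 23 had a positive slope at an adjusted p under 0.05 and the median slope was 0.86 (0.25 to 1.34), beside 0.0018 for all genes. In all, 0.433% of the genes tested were called with a positive slope. Myh4, Atp2a1 and Tnnt3, the most abundant of them (the fast myosin heavy chain, the calcium pump of the sarcoplasmic reticulum and fast troponin T), had slopes of 1.34, 1.12 and 1.13. Of the 10 smooth muscle and mural cell genes, 0 were called, beside 0.44% of the genes tested. The skeletal list was itself known to vary with Acta1 and serves as the reference.

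Flnc had the steepest slope of the 10, at 0.15 ± 0.04 (SE; limma adjusted p = 0.253, unadjusted p = 0.00475), with a 95% interval from 0.06 to 0.23. This is 10.6% more Flnc for each doubling of Acta1, and the slope was higher than that of 98.1% of genes. Synpo2 had a slope of 0.07 ± 0.05 (limma adjusted p = 0.634), with an interval from -0.05 to 0.19. Cacna2d1 had a slope of 0.05 ± 0.03 (limma adjusted p = 0.605), with an interval from -0.03 to 0.12. The 3 intervals ended below 0.25, the lowest slope estimate of any skeletal muscle gene tested. Without control replicate 1, Flnc and Synpo2 had slopes of 0.30 and 0.37, above that value. In control replicate 1, where Acta1 was 62.2, Flnc, Synpo2 and Cacna2d1 still stood at 179, 307 and 236. Such a base lowers a slope on the log2 scale whatever the source of the added RNA. The comparison with skeletal muscle genes therefore does not separate the sources.

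The slopes of the 7 smooth muscle genes ran from 0.02 for Smtn to 0.13 for Cnn1, with a median of 0.05, so that Synpo2 and Cacna2d1 lay within their range and Flnc above it. Acta2 had a slope of 0.07 ± 0.03 (limma adjusted p = 0.366), close to that of Synpo2. Myh11, Tagln, Lmod1 and Actg2 had slopes of 0.03, 0.05, 0.05 and 0.04. Replicate 1 had the lowest Acta1 of its group in both groups, as it had the lowest value for most of the smooth muscle genes, so within genotypes the pair of references moved together. The slopes on log2 Acta1 also rest on control replicate 1, which lies far below the others. Without it, the slopes were 0.30 for Flnc, 0.37 for Synpo2 and 0.22 for Cacna2d1, none of them past the threshold (limma adjusted p from 0.410 to 0.777). Slopes of the smooth muscle genes rose too, to 0.38 for Cnn1, 0.35 for Actg2, 0.16 for Tagln, 0.13 for Lmod1, 0.13 for Acta2 and 0.12 for Myh11, with Smtn at 0.03.

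**Figure D3:**
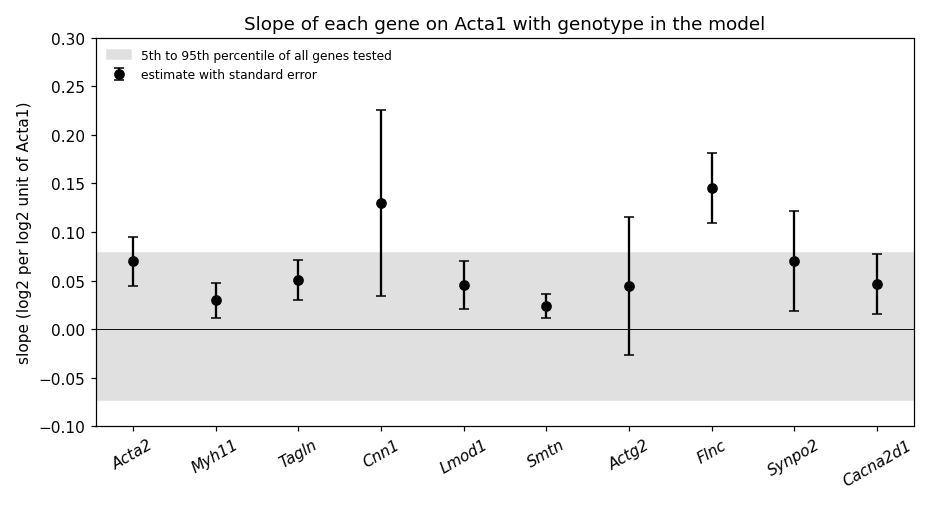
Slope of each of the 10 genes on log2 Acta1 with genotype in the model (y axis, log2 per log2 unit; points are limma estimates, bars the SE, grey band the range from the 5th to the 95th percentile of all genes tested). Flnc at 0.15 and Cnn1 at 0.13 lie above the band and the others at or below 0.07. All are far below the median of 0.86 of the skeletal muscle genes, a comparison that does not separate the sources of the RNA.

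Fitted on the smooth muscle score in the same way (13848 genes), Flnc had a slope of 1.66 ± 0.37, Synpo2 of 1.57 ± 0.26 and Cacna2d1 of 0.87 ± 0.24. A slope of 1 here means a change as large as the mean of the 7 smooth muscle genes. The unadjusted p-values were 0.00241, 0.000489 and 0.00743 (limma), but with adjusted values of 0.724, 0.616 and 0.845 none passed. No gene passed (percent called 0), whereas 410 genes with a positive slope and 228 with a negative slope had an unadjusted p under 0.05. edgeR on recovered reads called 0 genes as well, and DESeq2 called 29, one of them Synpo2 (adjusted p = 0.00918). Without AKO replicate 1, the slopes of Synpo2 and Cacna2d1 fell to 0.50 and 0.30 and that of Flnc rose to 2.68. The skeletal muscle genes, which are made chiefly in muscle fibers, had a median slope of 6.36 on the same score, so a positive slope on it does not separate smooth from skeletal muscle in these samples.

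With both references in a single model (limma, 2 slopes and genotype, 6 samples), the Acta1 slopes were 0.08 for Flnc, -0.03 for Synpo2 and -0.0044 for Cacna2d1. The slopes on the smooth muscle score were 1.09, 1.77 and 0.90. When log2 Acta1 was instead a covariate of the comparison of genotypes, the log2 fold change fell from 0.77 to 0.28 ± 0.20 for Flnc, from 0.67 to 0.43 ± 0.29 for Synpo2 and from 0.55 to 0.39 ± 0.18 for Cacna2d1. With Acta1 on the linear scale as the covariate, an alternative added after the data were seen, it was 0.31 for Flnc, 0.16 for Synpo2 and 0.24 for Cacna2d1. In the log2 fit the 7 smooth muscle genes moved to between -0.48 (Cnn1) and -0.13 (Smtn). Whether the 3 genes followed smooth or skeletal muscle RNA was therefore not settled by these fits. Samples matched in smooth muscle score or in Acta1 did not settle it either, for the reasons given beside them. The difference between the slopes of single genes was not tested.

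Other contractile and cytoskeletal genes of smooth muscle were spread more widely. Of 18 genes in this list, 0 were called between genotypes, and the median log2 fold change was 0.08 (-0.33 to 1.52). Tpm1 and Tpm2, tropomyosins shared with striated muscle, were at 1.48 and 1.52, Des (desmin, the intermediate filament of muscle cells) at 1.03 and Nexn (nexilin, an F-actin-binding protein of the Z-disc) at 0.96. These 4 were singled out after their values were seen. The other 14 were at most 0.5, the highest being Prkg1 at 0.44, Pdlim7 at 0.35 and Cald1 at 0.23. Among the 14, Myl9, the regulatory light chain of smooth muscle myosin, was at -0.05, and Mylk, the kinase that phosphorylates it, at -0.07. Tln1 and Vcl, which link actin to integrins, were at -0.04 and 0.08. Tpm1 had 1110 normalized counts in control replicate 1, 3497 and 2838 in the other control samples, 2749 in AKO replicate 1 and 7897 and 10968 in AKO replicates 2 and 3. The 4 genes above 0.9 had slopes on Acta1 of 0.31 (Tpm1), 0.39 (Tpm2), 0.18 (Des) and 0.20 (Nexn), none called.

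Close relatives of the 3 genes were also measured. Flna, which encodes the filamin found in most non-muscle cells, had a log2 fold change of 0.13, against 0.77 for Flnc. Synpo, the synaptopodin of kidney podocytes and neurons, was at 0.21, and Synpo2l, the relative found in heart and skeletal muscle, at 1.69. Synpo2l was 13.05, 47.3 and 45.7 normalized counts in controls against 47.1, 139 and 156 in AKO, again with AKO replicate 1 among the control samples. Cacnb1, the β subunit of the skeletal muscle calcium channel, was 41.1, 98.9 and 69.1 in controls against 79.7, 184 and 212 in AKO (log2 fold change 1.14). The slopes on Acta1 were 0.33 for Synpo2l and 0.21 for Cacnb1, neither called. Cacna2d2, Cacna2d3, Cacna2d4 and Cacnb2 had means below 10 and were not tested.

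Regulators of the smooth muscle program had log2 fold changes between -0.30 and 0.15. Of 8 found in the table, 6 were tested, 0 were called and the median log2 fold change was 0.01. Srf, the serum response factor itself, was at 0.15, its cofactor Mkl2 (MRTF-B) at -0.02 and Klf4, which represses contractile genes, at 0.14. Myocd, the myocardin gene, averaged 4.28 normalized counts over the 6 samples and was below the filter on low values.

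Pericyte markers had a median log2 fold change of -0.04 over 12 genes (-0.27 to 0.11), 0 called and no gene without overlap. Mcam (an adhesion molecule of mural and endothelial cells), Cspg4 (the NG2 proteoglycan) and Notch3 (the Notch receptor of mural cells) were at -0.01, 0.03 and -0.09. Pdgfrb, the receptor that recruits mural cells to vessels, was 1915, 2156 and 1982 normalized counts in controls against 2069, 1904 and 2008 in AKO. The pericyte sum varied little, from 15893 to 16699 in the control samples and from 15885 to 16764 in the AKO samples. Unlike the smooth muscle genes, it was not low in AKO replicate 1, where it had its highest value.

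Receptors and enzymes that set vascular tone were likewise not called (0 of 10, median log2 fold change 0.11). Ednrb and Ednra, the endothelin receptors, were at 0.19 and -0.15, and Gucy1a3, a subunit of the nitric oxide receptor guanylate cyclase, at 0.14. Adra1a, the α1A-adrenergic receptor, was 547, 618 and 504 normalized counts in controls against 414, 301 and 395 in AKO. Its AKO samples all lay below the control samples (log2 fold change -0.60; limma adjusted p over all genes not past the threshold), a pattern shown by 8.31% of the genes tested. Agtr1a, the angiotensin II receptor of vessels, lay above in each AKO sample, at 426, 425 and 459 against 355, 373 and 398. Gucy1a3 also lay above in each AKO sample, which makes 2 of 10 genes in this list, beside 6.14% of all genes tested.

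**Figure D4:**
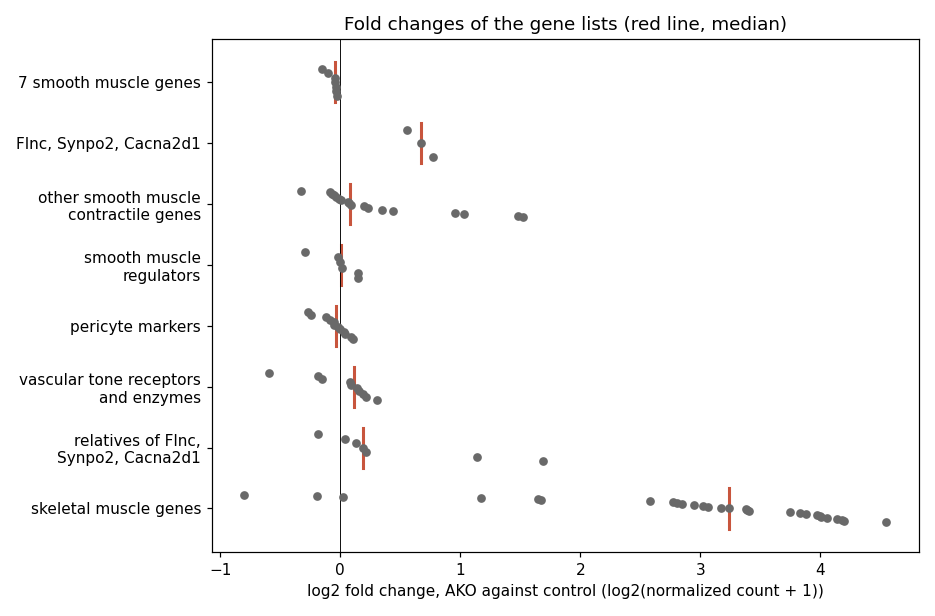
Log2 fold change (x axis, AKO against control on log2(normalized count + 1)) of each tested gene of 8 gene lists (rows); points are genes and the red lines list medians. The smooth muscle genes, regulators and pericyte markers center near 0 (medians -0.04, 0.01 and -0.04), Flnc, Synpo2 and Cacna2d1 lie at 0.55 to 0.77, and the skeletal muscle genes have a median of 3.24.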

How the data were processed

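RNA-Seq of iWAT was analysed in 3 control and 3 AKO samples taken after cold acclimation. According to the study's methods, reads were aligned with STAR to GRCm38.p6, counted per gene with featureCounts on a GENCODE annotation and tested with DESeq2. The submitters' processing notes name FastQC, STAR, DESeq2 and the build mm10. The values deposited by the authors are a signal, here called the normalized count, made by dividing reads by DESeq2 size factors. The deposited table also holds the authors' fold changes and p-values, which were not used. The strand setting and the filter behind the 16538 genes are not given in the sources used here.

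The values were compared as log2(normalized count + 1) with limma 3.58.1 (R 4.3.3, trend in the variance) over genes with a mean of at least 10, and with Benjamini-Hochberg adjustment over all genes tested at a threshold of 0.05. The slope fits held genotype as a term. Within each sample 100% of values were whole multiples of the value of 1 read (largest deviation 5.17e-05), and the recovered reads were tested with edgeR 4.0.16 (which called 2 genes between genotypes) and DESeq2 1.42.0 as alternatives. Any pair of samples in a group differed beyond counting error (chi-square over its degrees of freedom, 9.86 to 20.1). The p-values measure only the spread between these pools of mice. Groups were taken from the genotype labels.

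The 10 genes and all lists were chosen with earlier results of these data known. The genes named are these 10, Acta1, the 3 most abundant genes of each list, genes called in a fit, and the 3 genes most alike in profile to Flnc, Synpo2 and Cacna2d1. Some genes the rule names are not reported here. The 23 skeletal muscle genes called are given as a count, and other genes, including Tpm2, Des, Nexn, Synpo2l, Cacnb1, Adra1a and Agtr1a, were named after their values were seen. Positions, exon lengths and transcripts came from GENCODE release M21 (GRCm38), an annotation other than that used for counting, and promoters from RefSeq (GRCm38.p6), searched with Biopython 1.88 in Python 3.11.15.

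In simulated data, limma found 82 of 100 genes changed by a log2 value of 1 in the comparison of genotypes (2 false calls among 13849 genes). For the slope on Acta1 it found 90 of 100 genes given a slope of 0.25 (15 false calls among 13848 genes). Every simulated gene had the same fixed dispersion. In the real samples the SD of log2 values within groups ran from 0.08 (Smtn) to 0.76 (Cnn1) among the 10 genes. It was 0.46 for Flnc and 0.41 for Synpo2. The simulated shares therefore do not say how often a change in these genes would be found. Alternatives were pseudocounts of 0.1 and 10, no filter, TMM factors, the count tests, other covariates, a block for the replicate number, and fits without each sample. The slope fit on Acta1 on the linear scale with genotype in the model was among these alternatives. Linear Acta1 as a covariate of the comparison of genotypes, and the linear slope fit without genotype, were added after the data were seen.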

Additional observations from a re-analysis of the deposited data

How the results depend on the processing

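None of the 10 genes was called between genotypes under any of the 15 settings. Over all genes the number called was 2, with 151 by DESeq2, 0 with Acta1 as a covariate on the log2 or the linear scale, and 0 to 3 when a sample was left out (3 without control replicate 2 and 0 without any other). The labels number the replicates but state no pairing. Deviations of same-numbered samples correlated at 0.14, -0.35 and 0.24 across genes. These values cannot show whether samples were paired, because the deviations of the 3 samples of a group sum to 0. With the replicate number as a block, 2 genes were called, and the slopes on log2 Acta1 turned to -0.010 for Flnc, -0.18 for Synpo2, -0.083 for Cacna2d1, -0.034 for Acta2, -0.033 for Myh11, -0.022 for Tagln, -0.31 for Cnn1 and -0.24 for Actg2. None of these was past the threshold. With the smooth muscle score in the same model, the Acta1 slope was -0.029 for Synpo2 and -0.0044 for Cacna2d1. With samples left out, the slope of Actg2 ranged from -0.0061 (without AKO replicate 1) to 0.35. Without genotype in the model, Flnc passed with a slope of 0.17 (limma adjusted p = 0.0455), making 1 of the 10 genes called, but that fit takes in the difference between genotypes on which Flnc was selected, so its p is no support. By DESeq2 the slope of Synpo2 on the smooth muscle score was 1.58 (adjusted p = 0.00918). Leaving out samples, the Acta1 slopes ranged from 0.12 to 0.30 for Flnc, 0.02 to 0.37 for Synpo2 and 0.02 to 0.22 for Cacna2d1. The slopes on the smooth muscle score ranged from 1.39 to 2.68, 0.50 to 1.72 and 0.30 to 0.98. With the replicate block they were 0.12 for Flnc, 2.05 for Synpo2 and 0.92 for Cacna2d1, none past the threshold, while 363 genes were called. With Acta1 on the linear scale and genotype in the model, the Acta1 slopes were 0.38 for Flnc, 0.42 for Synpo2 and 0.26 for Cacna2d1. The smooth muscle genes ran from 0.05 (Smtn) to 0.48 (Cnn1) there. These slopes are not in the units of those on log2 Acta1. That fit called 0 genes, so the skeletal muscle genes that serve as the reference did not pass either, and it does not separate the sources. The causes of these changes were not tested. For Actg2 in the control samples counting error exceeded the spread between samples, whereas for Cnn1 the spread between samples was larger in both groups.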

Other observations

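The genes whose profile over the 6 samples lay closest to each of Flnc, Synpo2 and Cacna2d1 were found by the root mean square difference between log2 values, each gene centered on its own mean. This is a description over 6 samples of 2 genotypes, with no test. Nearest to Flnc were Nos1 (0.103), which encodes neuronal nitric oxide synthase, Diap3 (0.109), which encodes a formin, and Sptb (0.131), which encodes β-spectrin. Nos1 was 23.1, 52.7 and 37.6 normalized counts in controls against 39.4, 77.1 and 67.5 in AKO. Nearest to Synpo2 were Synm (0.0862), which encodes the intermediate filament protein synemin of muscle cells, Ttll7 (0.0867), which encodes a tubulin polyglutamylase, and Phka1 (0.0995), which encodes the muscle form of a phosphorylase kinase subunit. Synm was 436, 554.9 and 445 in controls against 482, 969 and 969 in AKO, with AKO replicate 1 among the control samples as for Synpo2. Nearest to Cacna2d1 were Glt28d2 (0.0792), Sema6c (0.0853), which encodes a transmembrane semaphorin, and Prkab2 (0.0955), which encodes a subunit of AMP-activated protein kinase.

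Markers of other cell types of the depot were also compared between genotypes, and none of their listed genes was called (nor was any of the 29 skeletal muscle genes tested). Endothelial markers had a median log2 fold change of -0.06 over 10 genes, with Cdh5 (VE-cadherin) at -0.13, Pecam1 at -0.04 and Kdr (a VEGF receptor) at -0.06. Fibroblast and progenitor markers had a median of 0.27 over 8 genes, with Col3a1 at 0.21, Col1a1 at 0.19 and Dcn (decorin) at 0.30. All 8 estimates were above 0, and Dpp4 (0.57) and Pdgfra (0.28), both markers of adipose progenitors named after their values were seen, were higher in each AKO sample than in any control sample, beside 6.14% of all genes. Adipocyte markers had a median of -0.09 over 8 genes, with Fabp4 at -0.17, Cfd at -0.12 and Adipoq at -0.10. In the mammary list, which had 4 genes at 0 in control replicate 2, Oxtr, the oxytocin receptor, was 305, 372 and 477 normalized counts in controls against 488, 1138 and 640 in AKO. Krt18 in that list, a keratin of luminal cells, was 132, 8.60 and 312 in controls against 36.5, 447 and 148 in AKO, with its lowest value in control replicate 2. Its log2 fold change of 0.88 and the list median of 0.97 rested on that sample, and without it (a comparison added after the data were seen) they were -0.59 and -0.64, with Oxtr at 0.89. Trp63, a transcription factor of basal cells, was at -0.41. Beside Acta1, the other actins were Actb at 0.14, Actg1 at 0.10 and Actc1, the cardiac actin, at 0.999, none called.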
